A study of Zea mays with 6 samples.

Results

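The m6A peaks described here are 2815 peaks whose summit lay in the middle of a gene in seedlings of a maize hybrid. They were chosen by position alone. A peak of m6A-seq replicate 1 had to overlap a peak of replicate 2 by at least 1 bp, and its summit had to lie inside exactly 1 annotated gene, at 20% to under 80% of the gene's span from the 5′ end. Of the 17371 peaks of replicate 1, 17022 overlapped a replicate 2 peak, and 13837 of these had their summit in exactly 1 gene. The middle peaks made up 20.3% of the 13837 and lay in 1486 genes, called hosts below, of 45578 gene entries listed. Summits in 2 or more genes (266 peaks) or in none (2919 peaks) were not counted.

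The 6 libraries came from untreated plants of the F1 hybrid B73×Mo17 (B73xMo17 in the labels), from aerial tissue of seedlings aged 14 days. They comprised 2 biological replicates each of m6A immunoprecipitation (IP), polysome-bound RNA, and input mRNA. All groups thus share genotype, age, tissue, and growth conditions, and the comparisons are between places along genes and between kinds of RNA. A hybrid carries the chromosomes of both parents, whereas its reads were mapped to the B73 genome alone, so values of the 2 parental alleles are not separated. The parental lines themselves are not analysed here.

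m6A is a methyl group on adenosine, the most common internal modification of mRNA in plants and animals. It is written by a methyltransferase complex, removed by ALKBH-type demethylases, and bound by reader proteins with a YTH domain, and through these readers it can affect splicing, stability, and translation of a transcript. In plants it is known to be concentrated near stop codons and in 3′ untranslated regions (3′UTR), so marks in the middle of a gene are the less common kind. In m6A-seq, RNA is fragmented and pulled down with an antibody against m6A, and a peak is a stretch where fragments pile up in the IP library relative to the input, so it marks a region and not a base. Polysomes are mRNAs loaded with several ribosomes, and the ratio of polysome to total mRNA abundance is used as a measure of translational efficiency.

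Positions are in the B73 RefGen_v4 build and refer to gene spans with introns included. Whether a summit lay in an exon, an intron, or a UTR was not analysed here, no sequence under the peaks was read, and peaks carry no strand of their own. The host identifiers are not paired with gene names in the files, and 0 of the 1486 matched the RefSeq table of gene names, so hosts are given by identifier with no function, and the tissue could not be checked by marker genes.

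Middle peaks were spread fairly evenly along the window, whereas peaks as a whole crowded at the 3′ end. Each 5% step of the gene from 20% to 80% held between 167 and 276 peaks, against 9598 peaks in the last 10% (69.4% of the peaks in exactly 1 gene) and 1024 at 80 to under 90% (7.40%). The window held 805 peaks at 20 to 40%, 961 at 40 to 60%, and 1049 at 60 to 80%. The first 20% of genes held 400 peaks.

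**Figure D1:**
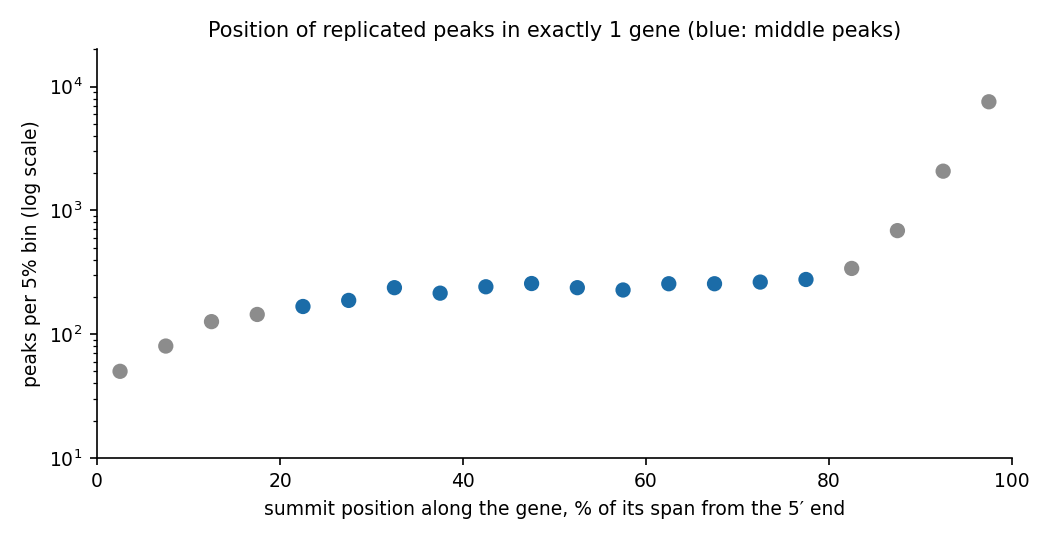
Number of replicated peaks with a summit in exactly 1 gene (log scale) per 5% step of the gene span, counted in % from the 5′ end. Blue points are the middle peaks, between 167 and 276 per step, and grey points are peaks nearer the gene ends, which are most numerous in the last 10%.

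In bases, most middle peaks were far from either gene end. The median distance of the summit was 7520 bp to the 3′ end, with quartiles of 3726 and 13422 bp, and 7379 bp to the 5′ end. Only 82 middle peaks (2.91%) lay within 500 bp of the 3′ end and 175 (6.22%) within 1000 bp, whereas the median distance of peaks in the last 10% was 158 bp. On single chromosomes the middle peaks were between 16.3% (chromosome 6) and 26.3% (chromosome 3, 418 of 1589) of the peaks in exactly 1 gene.

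The deposited fold enrichment compares IP with input at the summit, and middle peaks had folds in the range of peaks near the 3′ end. The median fold of middle peaks was 6.01 in replicate 1 (quartiles 4.86 and 7.52) and 7.81 in replicate 2 (5.75 and 10.2). For peaks in the last 10% it was 6.74 (4.70 and 9.59) and 7.22 (4.90 and 10.4), and for peaks at 80 to under 90% it was 5.55 and 6.22. The middle peaks were thus below the last 10% in replicate 1 and above it in replicate 2. Both positions were measured in the same 2 IP libraries, so a 2-sided exact paired permutation test over libraries cannot give a P below 0.5, and peaks are not replicates. Values for peaks by position are therefore given as a description, with no test. All positions hold only peaks called at q < 0.01, so weakly enriched sites that were not called are missing from these medians.

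Middle peaks differed more clearly in the number of sequenced fragments behind the fold. The deposited fold and −log10 P of a peak together give the number of IP fragments stacked at its summit and the input level that the peak caller set against it, and both were recovered for all 17371 and 30378 peaks. The median middle peak rested on 18 IP fragments in replicate 1 and 30 in replicate 2, against 46 and 59 for the last 10% and 35 and 48 at 80 to under 90%. Counting error alone gives 18 fragments an exact Poisson 95% interval of 10.7 to 28.5, and 46 fragments one of 33.7 to 61.4. The share of peaks with 30 or more IP fragments was 24.8% and 50.9% of middle peaks, against 77.6% and 91.3% of the last 10%. The fold of a single middle peak is thus known less precisely than that of a single 3′ peak.

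The input level at the summit was low for middle peaks as well, so their folds were similar to those near the 3′ end although IP fragments were fewer. The median was 1.26 input fragments in replicate 1 and 2 in replicate 2 at middle peaks, against 4 and 5 in the last 10%. In the first 20% it was 2 and 2.16. In 556 middle peaks of replicate 1 (19.8%) and 446 of replicate 2 (15.8%) it was within 0.05% of the lowest level in that library (0.826 and 0.968 fragments), taken here as the genome-wide input background, against 4.96% and 3.91% of the last 10%. The share in the first 20% was 17% and 11.5%. An input level of at most 1 fragment was found for 41.8% and 28.6% of middle peaks, against 10.3% and 7.58% of the last 10%. At a low input level a peak must have a higher fold to pass the q threshold of the calling. The fewest IP fragments of any middle peak were 9 in replicate 1 and 11 in replicate 2. Sites of low input and weak enrichment could thus not become middle peaks. How far this threshold set the median folds, and their likeness to those near the 3′ end, was not tested.

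**Figure D2:**
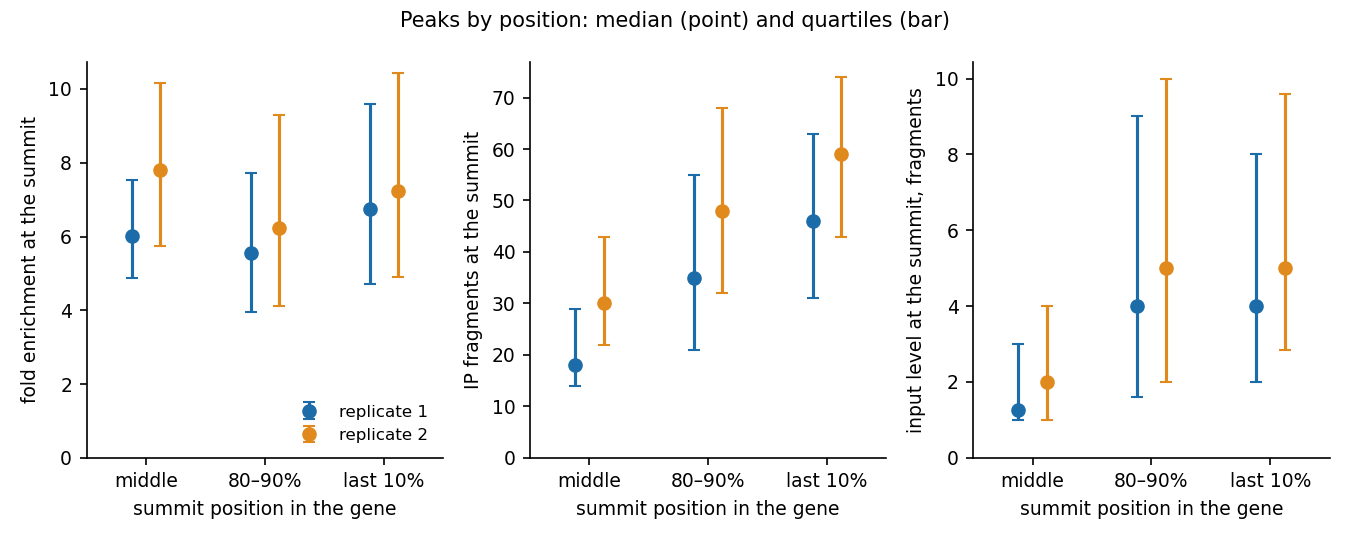
Median (point) and quartiles (bar) of fold enrichment, IP fragments at the summit, and input level at the summit in fragments, for 2815 middle peaks, 1024 peaks at 80 to under 90%, and 9598 peaks in the last 10% of genes, in replicate 1 (blue) and replicate 2 (orange). Folds overlap between positions, whereas IP fragments and input level are lowest at middle peaks in both replicates.

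The low input level was also seen where the host mRNA was abundant. FPKM is the abundance of a gene's mRNA in fragments, scaled by transcript length and library size, and in bulk tissue fewer cells of a type and less RNA per cell cannot be told apart. Among genes with mean mRNA FPKM ≥10, 622 middle peaks in 345 hosts had a median input level of 2.29 in replicate 1 and 3 in replicate 2, against 10.1 and 12 for 2739 peaks in the last 10%. The median host FPKM was 16.3 per middle peak and 17.7 per peak in the last 10%. An input level of at most 1 was found for 108 (17.4%) and 69 (11.1%) of these middle peaks, against 5 (0.183%) and 4 (0.146%) of the peaks in the last 10%. In these abundant genes the median fold of middle peaks was 5.36 and 6.79, against 4.55 and 4.41 in the last 10%, so that it was higher at middle peaks in both replicates. A higher input level lowers the fold by construction, so this order cannot be read apart from the input levels. No peak of either replicate had more than 96 IP fragments at its summit. Whether a limit on stacked fragments lowered the folds of deep peaks was not tested.

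Middle peaks were narrow in replicate 1 and wide in replicate 2. The median width was 124 bp (quartiles 78 and 208) in replicate 1 and 209 bp (134 and 357) in replicate 2, against 160 and 186 bp in the last 10%. Widths over 500 bp were found for 3.48% and 14.2% of middle peaks, against 0.313% and 0.750% of the last 10%, and 13 and 81 middle peaks were wider than 1000 bp. The widest of replicate 1 spanned 2757 bp in *Zm00001d034904* and 1619 bp in replicate 2, and was named after its values were seen.

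The 2 replicate summits of a middle peak lay close together, whereas its folds often differed. Peaks at all positions had to overlap a replicate 2 peak, so close summits follow in large part from the choice. The replicate 2 summit lay in the window of the same gene for 2787 of the 2815 peaks (99.0%), at a median distance of 17 bp, against 6 bp in the last 10%, and the summits were within 50 bp of each other for 73% of middle peaks, against 91.3% of the last 10%. The fold was higher in replicate 2 for 2079 middle peaks (73.9%), against 56.8% of peaks in the last 10%, with a median difference (replicate 2 minus 1, log2) of 0.32 at middle peaks and 0.08 in the last 10%. The folds of both replicates were within 1.5-fold for 67.4% of middle peaks and 73.4% of the last 10%. Across the 2815 middle peaks the log2 folds of the replicates had a correlation of 0.614, against 0.735 across the last 10%, as a description of points that share the same pair of libraries.

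The number of peaks in the window depended strongly on the replicate. Before any overlap was asked for, replicate 1 had 2917 peaks in the window and replicate 2 had 7854, which were 20.7% and 34.6% of their peaks in exactly 1 gene. Only 102 of the replicate 1 peaks had no partner in replicate 2, whereas 5105 of the replicate 2 peaks had none in replicate 1. These 5105 peaks rested on a median of 16 IP fragments with a median fold of 5.77, and 2986 of them lay in genes that also hold a middle peak. The set described here is therefore set by replicate 1, the library with fewer peaks.

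Peaks at the limits of the window are given next, without a test. The nearest peaks inside the 20% limit, in *Zm00001d018504* and *Zm00001d013534*, had folds of 6.92 and 5.97 in replicate 1 and 6.98 and 8.94 in replicate 2. Those just outside it, in *Zm00001d038847* and *Zm00001d004123*, had 9.48 and 5.01 in replicate 1 and 9.11 and 8.05 in replicate 2. Just inside the 80% limit, the peaks in *Zm00001d014367* and *Zm00001d040960* had folds of 8.13 and 3.94 in replicate 1 and 7.74 and 8.42 in replicate 2. Just outside it, *Zm00001d032857* and *Zm00001d051967* had 6.46 and 5.65 in replicate 1 and 10.8 and 9.38 in replicate 2. Over wider steps, the median IP fragments were 21 and 33 at 60 to 80%, against 35 and 48 at 80 to under 90%, and the median input levels were 1.83 and 2, against 4 and 5.

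Within the window, fold differed little with position. In replicate 1 the median fold at 20 to 40%, 40 to 60%, and 60 to 80% was 6.01, 6.20, and 6.01, and in replicate 2 it was 7.81, 8.11, and 7.64. Median IP fragments in replicate 1 were 17, 18, and 21, and median input levels were 1.10, 1.06, and 1.83. The share of peaks in a gene that also held a 3′ end peak was 75.7%, 75%, and 61.5% in these steps, and the median host length was 18962, 16352, and 13483 bp.

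The middle peaks with the highest fold in hosts with mean mRNA FPKM ≥1 were picked by the mean log2 fold of both replicates. A high fold in both therefore follows from the choice. The highest mean of both was in *Zm00001d026485* (chromosome 10, 146872939 to 146890622, + strand), where the peak from 146885664 to 146885830, at 72.5% of the gene, had a fold of 21.5 in replicate 1 and 17.8 in replicate 2. It rested on 57 and 67 IP fragments (exact Poisson 95% intervals 43.2 to 73.9 and 51.9 to 85.1) over input levels of 1.25 and 2.06, and both summits fell on the same base. Its host had 1.08 and 1.31 FPKM in polysome RNA, against 2.42 and 3.49 FPKM in mRNA, and a second peak nearer the 3′ end.

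The next peaks by fold lay in hosts of similarly low abundance, apart from 1. In *Zm00001d002758* (chromosome 2, 21813079 to 21818936, − strand) the fold was 16.6 and 20.8 at 46.0% of the gene, with 38 and 51 fragments, and the host had no 3′ end peak. In *Zm00001d041880* (chromosome 3, 142132876 to 142197276, + strand) a wide peak of 702 and 722 bp at 67.5% of the gene had folds of 16.5 and 20.7, and its host was the more abundant one, with 15.8 and 14.5 FPKM in mRNA. The other 5 of the 8 highest lay in *Zm00001d028269*, *Zm00001d041175*, *Zm00001d003284*, *Zm00001d006758*, and *Zm00001d003807*, with folds between 14.2 and 18.8 in replicate 1 and between 14.2 and 21.2 in replicate 2. All 8 had input levels under 2.1 in both replicates.

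A higher single value, named after the values were seen, was found in a gene of very low mRNA level. The peak with the highest fold of all middle peaks in replicate 1, 26.0, lay in *Zm00001d027236*, at 75.1% of a gene of 666 bp and 166 bp from its 3′ end, and had a fold of 14.4 in replicate 2. It rested on 56 and 71 fragments over input levels of 0.826 and 3. FPKM of this host was 1.02 and 0.843 in polysome RNA, against 0.164 and 0 in mRNA. Of all hosts, 163 had a mean mRNA FPKM under 1, and 33 were listed at 0 in both mRNA libraries.

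The middle peak nearest to the median in mean log2 fold differed between the replicates. In *Zm00001d051644* (chromosome 4, 165589428 to 165612542, − strand), whose mean log2 fold was nearest to the median over the peaks in hosts with mean mRNA FPKM ≥1, the fold was 4.21 in replicate 1 and 11.0 in replicate 2, with 14 and 27 IP fragments, input levels of 2 and 1.06, and widths of 57 and 558 bp. Here the replicates differed by more than 1.5-fold, whereas 67.4% of middle peaks were within 1.5-fold. Its width in replicate 2 was also unusual, since 14.2% of middle peaks were wider than 500 bp there.

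Hosts were long genes. Their median length was 10753 bp (quartiles 5759 and 18640), against 5034 bp for the 9056 genes with a 3′ end peak only (summit at 80% or more, and none in the middle or the first 20%) and 3473 bp for all genes with mean mRNA FPKM ≥1. Of the hosts, 786 (52.9%) were longer than 10000 bp, against 15.2% of genes with a 3′ end peak only. A long gene offers more bases to the window, and how much of the difference this makes was not tested.

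Most hosts had 1 middle peak, and a small group of long hosts held many. A single middle peak was found in 1020 hosts (68.6%), 2 in 186, and 3 in 99. The 124 hosts with 5 or more held 898 peaks, 31.9% of all middle peaks. Median length was 7718 bp with 1 middle peak, 18987 bp with 2 or more, and 25701 bp with 5 or more. Within a gene, neighbouring middle summits were a median of 707 bp apart (quartiles 430 and 1343), and 65.5% of the neighbours were within 1000 bp.

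The 4 hosts with the most middle peaks showed them in runs along the gene. *Zm00001d041880* and *Zm00001d030282* (chromosome 1, 118828597 to 118879142, − strand) had 19 each, *Zm00001d038093* (chromosome 6, 147577082 to 147627637, + strand) had 16, and *Zm00001d020036* (chromosome 7, 87375993 to 87448666, + strand) had 14. Folds in *Zm00001d041880* ran between 3.99 and 16.5 in replicate 1 and between 3.23 and 20.7 in replicate 2, so that peaks of 1 gene differed several-fold. In *Zm00001d030282* they ran between 4.19 and 12 in replicate 1 and between 4.02 and 15.3 in replicate 2, with no summit at the input background in either replicate, whereas 6 of the peaks in *Zm00001d041880* were at it in replicate 1. All 4 hosts also had at least 1 peak at the 3′ end, with 6 in *Zm00001d030282*.

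**Figure D3:**
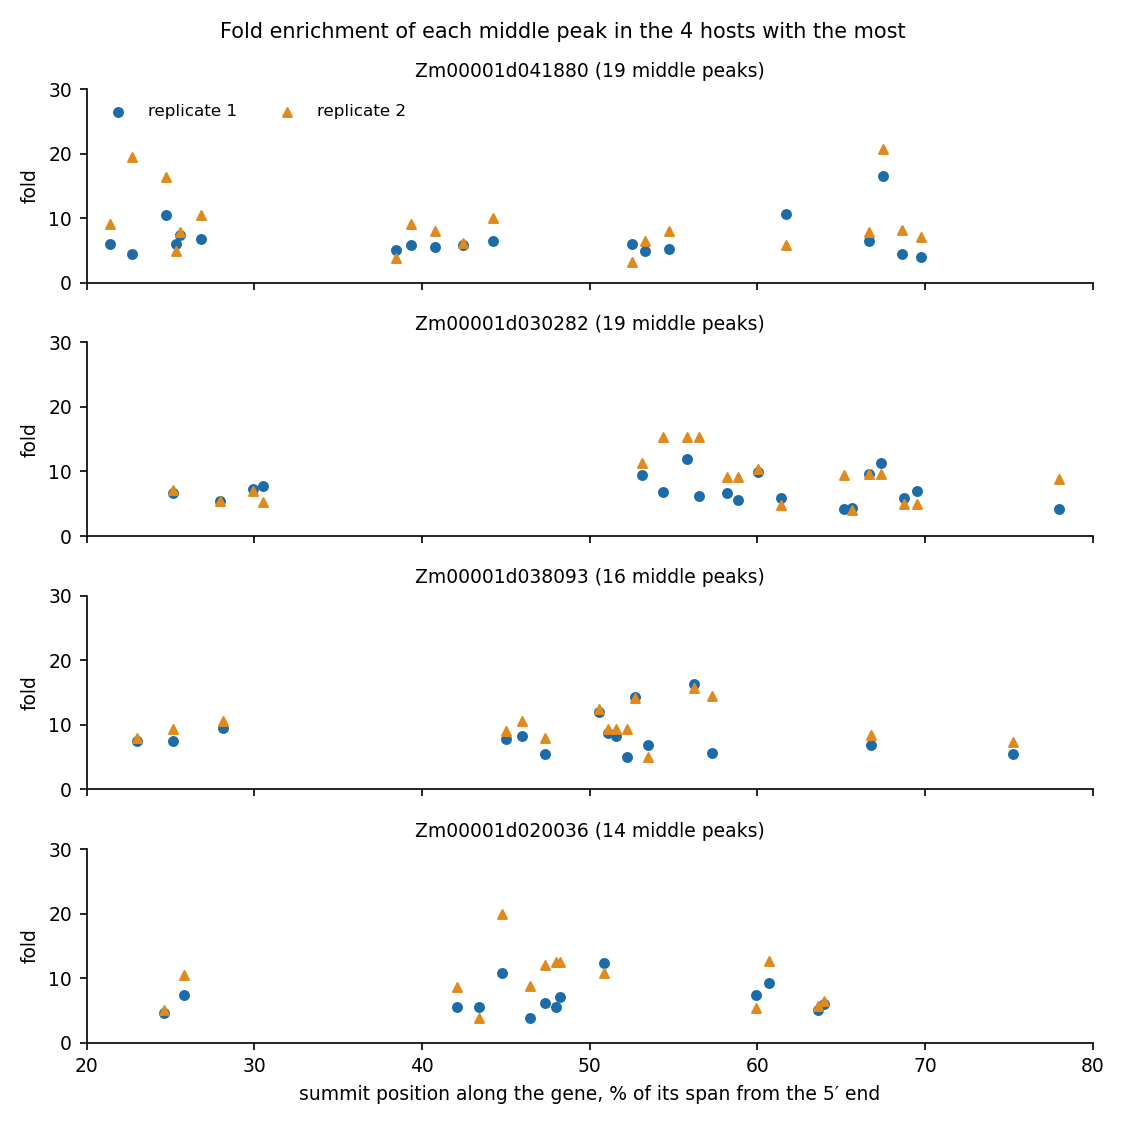
Fold enrichment of each middle peak against the summit position, in % of the gene span from the 5′ end, in the 4 hosts with the most middle peaks (19, 19, 16, and 14). Blue circles are replicate 1 and orange triangles replicate 2, and the peaks of a gene form groups separated by stretches with none.

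These 4 hosts were lower in polysome RNA than in mRNA. *Zm00001d041880* had 7.35 and 6.86 FPKM in polysome RNA, against 15.8 and 14.5 FPKM in mRNA. *Zm00001d030282* had 6.34 and 5.92 FPKM in polysome RNA, against 16.2 and 13.4 FPKM in mRNA. *Zm00001d038093* had 1.88 and 1.86 FPKM in polysome RNA, against 4.55 and 4.24 FPKM in mRNA. *Zm00001d020036* had 2.21 and 1.95 FPKM in polysome RNA, against 4.75 and 4.69 FPKM in mRNA. The log2 difference on the log2(FPKM + 0.1) scale was between −1.25 and −1.08 in the 4 genes, with adjusted P between 0.0013 and 0.0025 by limma. Of all genes tested, 22.2% were called lower. The calls of *Zm00001d041880* and *Zm00001d030282* were lost without mRNA replicate 1, and those of *Zm00001d038093* and *Zm00001d020036* were lost without any 1 of the 4 libraries. The input RNA was selected for poly(A) tails, whereas no such step is described for the polysome RNA, so preparation and kind of RNA cannot be told apart in this and the following comparisons.

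A peak at the 3′ end was found in 837 hosts (56.3%), and the share differed with host length. It was 49.6% when both replicates' peaks had to overlap by at least 50%. Only replicated peaks with a summit in exactly 1 gene were counted. A peak just past the annotated gene end, or in 2 or more genes, could therefore not count as a host's 3′ end peak. Of the hosts, 112 had a counted peak in the first 20%, and 626 had no counted peak outside the window. Hosts with a 3′ end peak had a median length of 15072 bp, against 6214 bp for hosts without. Hosts were divided at 5759, 10753, and 18640 bp into 4 length classes of 371 or 372 genes. In classes 1 to 4, ordered by rising length, the share with a 3′ end peak was 22.3%, 47.2%, 70.9%, and 84.9%, and the mean number of middle peaks per host was 1.04, 1.26, 1.94, and 3.34.

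Fold and depth of the middle peaks went opposite ways with host length. In replicate 1 the median fold in classes 1 to 4 was 5.16, 5.72, 6.03, and 6.32, and in replicate 2 it was 5.61, 7.03, 7.85, and 8.60. Median IP fragments were 36, 27, 17, and 15 in replicate 1 and 49, 39, 29, and 26 in replicate 2, and median input levels were 5, 3, 1.14, and 1 in replicate 1 and 6, 3.01, 2, and 1.20 in replicate 2. The share of summits at the input background was 7.73%, 12.8%, 18.5%, and 26.8% in replicate 1. A lower input level raises the fold by construction, so the rise in fold with length cannot be read apart from the fall in input level. Peaks in the shortest hosts, a median of 1061 bp from the 3′ end, were thus near to 3′ peaks in depth, and those in the longest hosts, a median of 14529 bp away, were farthest from them.

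Fold was also lower where the host mRNA was more abundant. In 4 classes of peaks by mean host FPKM, with medians of 2.20, 4.26, 7.01, and 16.0 FPKM, replicate 1 had median folds of 6.34, 6.20, 5.84, and 5.40, and replicate 2 had 8.48, 8.20, 7.32, and 6.78. The input level in replicate 1 was 1, 1, 1.67, and 2.24. Fold and input level share the same input library, so a higher input level lowers the fold by construction.

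In the 837 hosts with both kinds of peak, the highest middle peak and the highest 3′ end peak of the same gene could be set side by side. Each was picked by mean log2 fold from all peaks of its kind in the gene, such as 19 middle and 2 end peaks in *Zm00001d041880*. A pick from more peaks tends to have a higher fold, and a pick by fold favours a low input level. How far this set the values below was not tested. The median fold was 6.47 in replicate 1 and 8.58 in replicate 2 for the middle peak, against 7.86 and 8.43 for the 3′ end peak, and the median log2 difference (middle minus 3′ end) was −0.30 and −0.02. The middle peak had the higher fold in 296 genes (35.4%) in replicate 1, in 406 (48.5%) in replicate 2, and in 214 (25.6%) in both, whereas the 3′ end peak had the higher or an equal fold in both replicates in 349 (41.7%). In fragments the order was clearer. The middle peak had a median of 20 and 31 IP fragments, against 50 and 63 at the 3′ end, and it had the lower number in 82.1% and 79.6% of the genes. Its input level was 1.20 and 1.73, against 4 and 5, and was lower in 72.6% and 72.2% of the genes, although both peaks belong to 1 gene with 1 FPKM value.

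**Figure D4:**
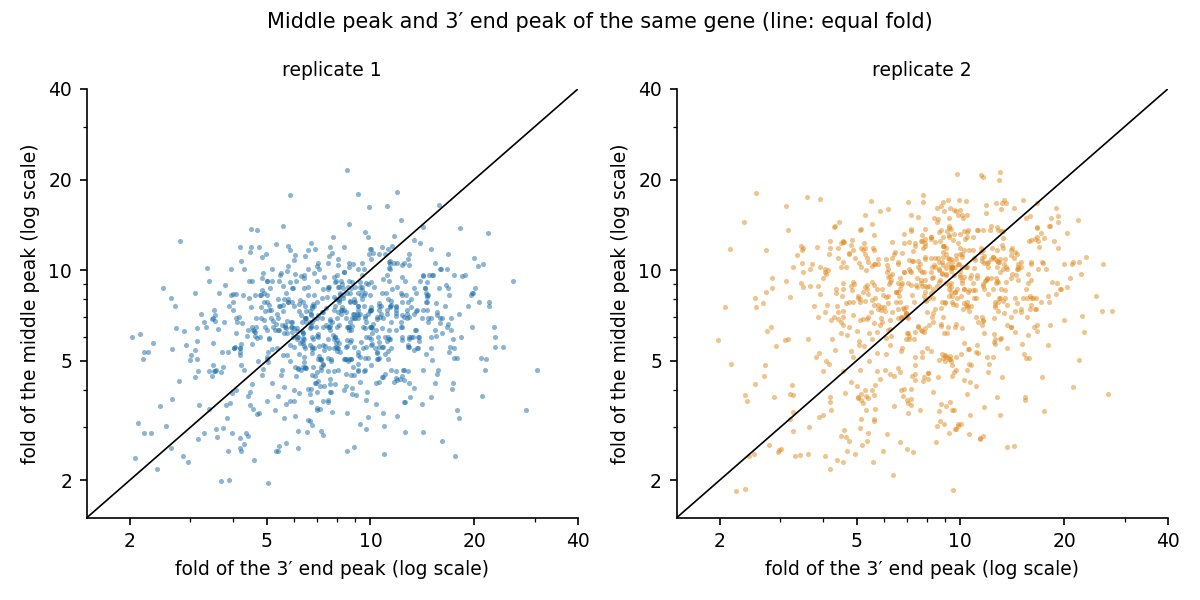
Fold enrichment of the highest middle peak (vertical, log scale) against that of the highest 3′ end peak (horizontal, log scale) in the 837 hosts with both, for replicate 1 (blue) and replicate 2 (orange). The line marks equal folds, and 296 genes lie above it in replicate 1 and 406 in replicate 2.

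The mRNA level of hosts was close to that of other genes. Of the hosts, 1323 had mean mRNA FPKM ≥1. Among these the median mRNA FPKM was 5.65 and 5.41 in the replicates, and 5.54 for the mean of both, against 6.09 for genes with a 3′ end peak only and 5.49 for all genes with mean mRNA FPKM ≥1. The replicates were within 1.5-fold for 89.3% of hosts in polysome RNA and 90.1% in mRNA.

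The most abundant hosts had middle peaks of modest fold and were higher in polysome RNA. *Zm00001d042049* (chromosome 3, 148582474 to 148588391, − strand) had 701 and 750 FPKM in polysome RNA, against 480 and 464 FPKM in mRNA. Its only middle peak, at 36.7% of the gene, had a fold of 2.82 and 2.81 with 66 and 74 IP fragments over an input of 18.8 and 20.4. *Zm00001d027841* (chromosome 1, 14831571 to 14846630, + strand) differed from it in that the input level at its peak was only 2.07 and 2.22, with a fold of 4.65 and 8.99, while the gene had 441 and 489 FPKM in polysome RNA, against 199 and 209 FPKM in mRNA. The other 3, *Zm00001d045621*, *Zm00001d028542*, and *Zm00001d012998*, had folds between 2.38 and 5.21 in replicate 1 and between 2.48 and 5.14 in replicate 2. All 5 rose in polysome RNA by limma, with log2 differences between 0.62 and 1.92 and adjusted P between 0.00013 and 0.0029. Of all genes tested, 21.1% were called higher. The calls depended on scaling. With ENSRNA entries left out and the rest rescaled, *Zm00001d045621* and *Zm00001d012998* were still called higher (1.25 and 1.23, log2), whereas *Zm00001d027841* and *Zm00001d028542* were not (0.52 and 0.42) and the difference in *Zm00001d042049* turned to −0.050. The call of *Zm00001d042049* was also lost without either mRNA replicate and without polysome replicate 2.

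Polysome and mRNA FPKM were compared in all genes by limma on log2(FPKM + 0.1), a scale that understates changes of low values, and a gene was called at an adjusted P (Benjamini–Hochberg) under 0.01 and a fold change of at least 1.5. Of the 1486 hosts, 1303 passed the filter (mean FPKM ≥1 over the 4 libraries). Among them 261 (20.03%) were higher and 333 (25.6%) lower in polysome RNA, against 21.1% higher and 22.2% lower over all 19518 genes tested. The median log2 difference was −0.26 in hosts and −0.14 over all genes tested. The host shares were thus near those of all genes. With 1 library left out, the median log2 difference was between −0.34 and −0.16 in hosts. Over all genes tested it was between −0.22 and −0.04. Higher calls then outnumbered lower ones, in hosts and over all genes tested, except without polysome replicate 2. The split of calls thus depended on the library left out, and it depended on scaling as well. With each library centred on its median it was 330 higher and 249 lower in hosts, against 26.8% and 17.2% of all genes. With ENSRNA entries left out and the rest rescaled to an equal sum, it was 111 higher and 659 lower, against 9.33% and 45.1% of 19474 genes.

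The counts are given next for hosts with and without a 3′ end peak, as a description with no test between them. Of 790 tested hosts with a 3′ end peak, 117 (14.8%) were higher and 248 (31.4%) lower in polysome RNA, against 21.1% and 22.2% of all genes tested. Without each library in turn their median log2 difference was between −0.53 and −0.38, against −0.22 to −0.04 over all genes tested. Of 513 hosts without a 3′ end peak, 144 (28.1%) were higher and 85 (16.6%) lower. Their median was between 0.01 and 0.20 when 1 library was left out. Of 8218 genes with a 3′ end peak only, 1868 (22.7%) were higher and 1627 (19.8%) lower. Their median was between −0.21 and 0.01 when 1 library was left out. The rescaled values gave 899 higher (10.8%) and 3749 lower (45.1%) for these genes, against 9.33% and 45.1% of all genes. Among hosts without a 3′ end peak, the rescaled values gave 65 higher (12.4%) and 200 lower (38.2%). Hosts with one had more lower than higher calls under each scaling. These were 188 (23.8%) to 160 (20.3%) when centred, against 17.2% and 26.8% of all genes. When rescaled they were 459 (57.5%) to 46 (5.76%).

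Hosts with many middle peaks had more lower than higher calls. Of 435 tested hosts with 2 or more, 47 (10.8%) were higher and 160 (36.8%) lower, against 21.1% and 22.2% of all genes tested, and of 118 with 5 or more, 9 (7.63%) were higher and 47 (39.8%) lower. Without each library in turn, the median log2 difference was −0.74 to −0.55 with 2 or more and −0.85 to −0.64 with 5 or more. Over all genes tested it was −0.22 to −0.04. The rescaled values gave 9 higher (2.05%) and 287 lower (65.4%) for 2 or more, against 9.33% and 45.1% of all genes. Hosts with 5 or more middle peaks had a median length of 25701 bp, and 48.6% of all genes over 18640 bp with mean mRNA FPKM ≥1 were lower as well. The part of length in these counts was not tested.

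The ratio of polysome to mRNA FPKM was lower in longer genes, in hosts and in other genes alike. Over hosts with mean mRNA FPKM ≥1 the median ratio was 0.758 in replicate 1 and 0.857 in replicate 2, against 0.817 and 0.885 over all genes at that level. In the 4 length classes replicate 1 gave 1.47, 0.910, 0.740, and 0.439 and replicate 2 gave 1.65, 1.05, 0.798, and 0.482. From the mean FPKM of both replicates, hosts had ratios of 1.54, 0.976, 0.752, and 0.466, against 1.11, 0.703, 0.607, and 0.474 in genes with a 3′ end peak only and 0.949, 0.701, 0.633, and 0.471 in all genes of the same length classes. In the 3 shorter classes the hosts were above both, and in the longest class they did not stand apart.

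**Figure D5:**
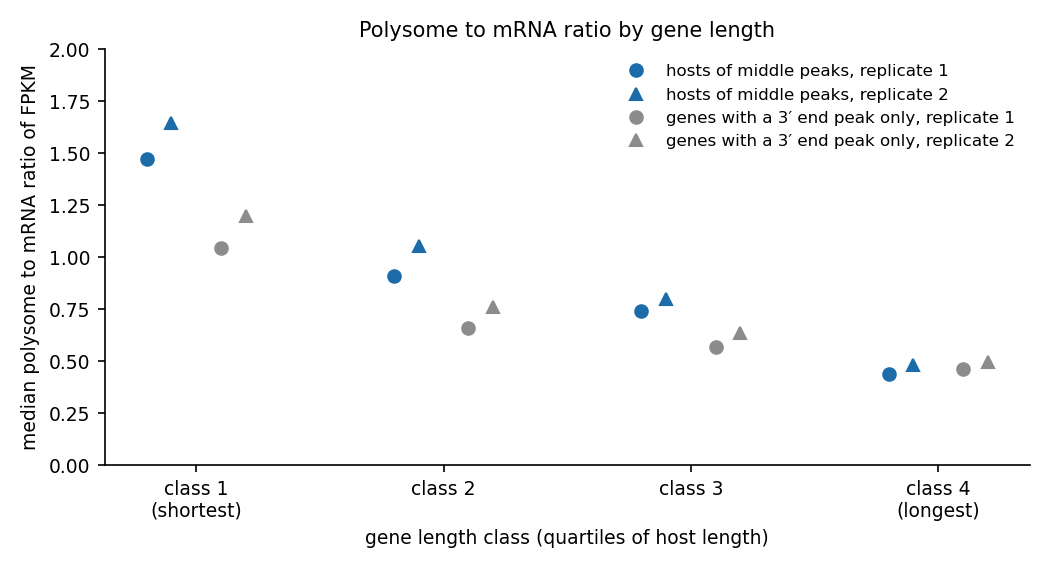
Median ratio of polysome to mRNA FPKM in hosts of middle peaks (blue) and in genes with a 3′ end peak only (grey), by gene length class, in replicate 1 (circles) and replicate 2 (triangles). The ratio is lower in longer genes in both sets, and the hosts are above in classes 1 to 3.

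Counts by limma are given for the same classes. Among tested hosts with mean mRNA FPKM ≥1, 137 of 310 in the shortest class (44.2%) were higher and 33 (10.6%) lower in polysome RNA, against 24.6% and 19.8% of all genes of that class, hosts included. In the second class 66 of 315 (21.0%) were higher and 49 (15.6%) lower, against 12% and 27.2%. In the third, 43 of 331 (13.0%) were higher and 80 (24.2%) lower, against 9.23% and 32.6%. In the longest class 11 of 333 (3.30%) were higher and 171 (51.4%) lower, against 5.16% and 48.6%. Leaving out each library in turn lowered the counts in each class, in hosts and in all genes alike. Without polysome replicate 1, class 3 hosts had slightly more higher than lower calls. With ENSRNA entries left out and the rest rescaled, lower calls outnumbered higher ones in each class (73 to 67, 126 to 29, 188 to 12, and 272 to 2). In classes 1 to 4, 21.3%, 9.06%, 3.58%, and 0.593% of hosts were then higher, against 11.3%, 4.42%, 2.98%, and 1.37% of all genes. Lower were 23.2%, 39.4%, 56.1%, and 80.7% of hosts, against 41.3%, 55.6%, 62.5%, and 76.2% of all genes. These shares are a description, since hosts and other genes were not compared by a test.

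Within length classes the order of hosts with and without a 3′ end peak was not that of the pooled values. Pooled, the median ratio from the mean FPKM was 0.703 in hosts with a 3′ end peak and 1.02 in hosts without. In class 1 it was 1.37 with and 1.63 without, but in classes 2, 3, and 4 it was 1.07, 0.766, and 0.467 with, against 0.890, 0.635, and 0.441 without. The pooled difference was therefore not seen in the 3 longer classes, where hosts with a 3′ end peak had the higher median in both replicates.

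The hosts with the largest differences at mean FPKM ≥10 had 1 to 5 middle peaks. *Zm00001d011515* (chromosome 8, 153108098 to 153110782, − strand) had 97.7 and 98.0 FPKM in polysome RNA, against 15.9 and 13.6 FPKM in mRNA, a log2 difference of 2.73 ± 0.13 (SE, adjusted P = 0.00012 by limma). Its middle peak, at 47.0% of a gene of 2685 bp, had folds of 8.09 and 8.61, and the gene had no peak at the 3′ end. *Zm00001d045320* (chromosome 9, 18913946 to 18922479, + strand) had 21.5 and 15.3 FPKM in polysome RNA, against 2.87 and 0.725 FPKM in mRNA, a log2 difference of 3.54 ± 0.57 (SE, adjusted P = 0.003 by limma). The mRNA replicates of this gene were far apart, and its call was lost without either polysome replicate and without the filter on low FPKM. Its peak had folds of 2.97 and 2.51 over input levels of 17 and 22.

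Among the hosts that fell, *Zm00001d023792* (chromosome 10, 20844614 to 20890419, + strand) had 3.34 and 2.49 FPKM in polysome RNA, against 20.3 and 24.6 FPKM in mRNA, a log2 difference of −2.91 ± 0.20 (SE, adjusted P = 0.00018 by limma). It had 5 middle and 3 end peaks, and the middle peak with the highest fold, at 69.8% of a gene of 45806 bp, had folds of 10.4 and 16.9 over input levels of 0.864 and 1. *Zm00001d031847* (chromosome 1, 203973238 to 203990097, + strand) had 4.40 and 7.33 FPKM in polysome RNA, against 32.3 and 32.3 FPKM in mRNA, a log2 difference of −2.49 ± 0.25 (SE, adjusted P = 0.00052 by limma). Its peak was weak, with folds of 2.57 and 3.86, so that a large difference between polysome RNA and mRNA was found in hosts of high and of low fold.

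The 3 longest hosts with mean mRNA FPKM ≥1 were low in polysome RNA as well. *Zm00001d015890* (chromosome 5, 129466482 to 129557572, − strand, 91091 bp) had 2.47 and 3.40 FPKM in polysome RNA, against 5.65 and 6.07 FPKM in mRNA, and *Zm00001d043305* (chromosome 3, 195356935 to 195446434, − strand) had 0.753 and 0.835 FPKM, against 3.97 and 4.61 FPKM. Both fell by limma, with log2 differences of −0.99 ± 0.21 (SE, adjusted P = 0.0077) and −2.29 ± 0.21 (SE, adjusted P = 0.00042). The call of *Zm00001d015890* was lost without the filter on low FPKM and without any 1 of the 4 libraries. *Zm00001d046039* (chromosome 9, 58107514 to 58194898, − strand) had 0.424 and 0.323 FPKM in polysome RNA, against 1.42 and 1.57 FPKM in mRNA, and was below the filter for the test. Each of the 3 held 8 middle peaks and at least 1 peak at the 3′ end.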

How the data were processed

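m6A-seq, polysome, and input RNA-seq of the hybrid were used, with 2 libraries each, and samples were grouped by their labels. Reads were trimmed with Trimmomatic 0.35 and mapped with HISAT2 2.1.0 to the B73 genome by the authors, per the labels. Gene FPKM were estimated with StringTie by the authors and used as deposited. Their depth is unknown, because low values did not fall on steps of whole fragments. Peaks were called by the authors with MACS2 per replicate at q < 0.01 against the input. The deposited columns are fold enrichment (a ratio), −log10 P, −log10 q, summit offset, and a score that is the integer part of 10 times −log10 q. Raising the summit offset by 1 base would give 2817 middle peaks in place of 2815.

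IP fragments and input level were solved from fold and −log10 P under the MACS2 formulas (pseudocount 1, Poisson tail), with 1 scale per replicate, within 0.001 of the deposited −log10 P. The solution was not unique for 46 and 176 peaks. The scales imply 1.20 and 1.25 times as many IP as input fragments, if MACS2 scaled to the smaller library. Intervals cover counting error only, since fragments have no molecular identifiers.

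The comparison of polysome with mRNA FPKM used limma 3.58.1 (lmFit, eBayes with trend; R 4.3.3). The study names Xtail, which needs counts. The replicates held different values in 30298 (polysome) and 30845 (mRNA) of 45578 entries. Python 3.11.15, numpy 2.4.6, pandas 2.3.3, scipy 1.17.1, and matplotlib 3.10.9 were used, and both steps were tested on simulated data.

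Named genes are the 8 middle peaks of highest mean log2 fold in hosts with mean mRNA FPKM ≥1, the 4 hosts with most middle peaks, the 5 most abundant hosts, the 2 hosts that rose most and the 2 that fell most in polysome RNA among calls at mean FPKM ≥10 and the same direction in both replicates (4 of each were planned, reduced because names are not paired with identifiers), the 3 longest, the 2 peaks on each side of each limit, and the peak nearest to the median. None of 10 genes with primers in the study is a host. Planned groups by gene function, tissue markers, and summit sequences were not run, because 0 host identifiers matched RefSeq (153 matches were all microRNA names) and no genome was used here. The members and lists were chosen with earlier results of these data known. Alternatives covered overlap, −log10 q, window, summit, filter, pseudocount, scaling, replicate block, and leaving out each replicate.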

Additional observations from a re-analysis of the deposited data

How the results depend on the processing

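Of the 15 hosts named with a polysome difference, *Zm00001d042049* turned to −0.050 (log2) after rescaling without ENSRNA entries. The other 14 kept their direction in each alternative of the limma fit that gave a value. With at least 50% overlap of both peaks, 1776 middle peaks were left, host length was 10337 bp, mRNA FPKM 5.77, and the share of hosts with a 3′ end peak 49.6%. A −log10 q of at least 5 gave 1868 peaks, 10817 bp, and 52.2%. Counting replicate 2 peaks gave a fold of 7.68, a width of 196 bp, 10774 bp, and 56.7%. Summits of both replicates in the window gave 10818 bp and 56.7%, and a window of 25 to 75% gave 11461 bp and 58.7%. A 3′ end peak at 90% or more was found in 53.5% of hosts, and one within 500 bp of the end in 56.7%. With peaks of 1 replicate alone, peaks numbered 2917 to 7854, hosts 1539 to 2797, length 9611 to 10508 bp, mRNA FPKM 5.06 to 5.59, and the share 56.6 to 64.0%. The median polysome to mRNA ratio of hosts was 0.903 with an FPKM of at least 1 in all 4 libraries and 0.947 with centred libraries. The polysome libraries had a median 0.23 below that of the mRNA libraries (−0.23, log2). Hosts called higher numbered 111 after rescaling without ENSRNA entries, and hosts called lower 659 after rescaling and 202 without the filter. Leaving out each library gave 160 to 178 higher and 135 to 205 lower. Leaving out a library leaves 1 sample in an arm, assumed to vary like the other. Same-numbered mRNA and polysome libraries did not deviate together (correlation 0.016). With 2 libraries of each kind, this cannot decide whether the numbers pair the samples. Ratios given by replicate divide libraries of the same number. With the replicate block, 246 hosts were higher and 309 lower. Single middle peaks rest on few fragments, a median of 18 and 30.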
